A study of Mus musculus with 12 samples.

Results

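The Bcl2 family decides whether a cell keeps or loses the integrity of its mitochondria, and the 10 genes described here are its best known members: Bcl2l11, Bbc3, Pmaip1, Bid and Bad, which encode BH3-only proteins, Bax and Bak1, which encode the effectors, and Bcl2, Bcl2l1 and Mcl1, which encode the pro-survival proteins. They were chosen by gene symbol around Bcl2l11, a known target of miR-148a-3p, and all 10 were found among the 48709 genes of the count files and passed the filter on low counts that left 18847 genes for testing. RNA was sequenced from 12 cultures of primary hippocampal neurons of CD1 mice, prepared at embryonic day 17. Of these, 6 (mimic) received lipid nanoparticles with a synthetic mimic of miR-148a-3p, and 6 (control) received nanoparticles with a negative control oligonucleotide. Treatment began on day in vitro 10, and RNA was taken on day 12, that is 48 h later. The methods of the study also name ApoE4 protein in the treatment used for RNA sequencing, in a sentence that can be read as applying to both groups or to the control nanoparticles alone, so that a difference in ApoE4 between the groups cannot be told apart from the mimic. Hippocampi of a litter were pooled for such cultures, and nothing says that the 6 cultures of a group came from separate litters, so p-values measure the spread between these samples, which may be technical.

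BH3-only proteins sense stress such as growth factor loss or DNA damage. They bind pro-survival proteins or activate Bax and Bak1 directly, and the effectors then form pores in the outer mitochondrial membrane through which cytochrome c reaches the caspases. Neurons are long-lived cells that depend on Bcl2l1 and Mcl1 for survival, and in neurons deprived of trophic support the transcripts of Bcl2l11 and Bbc3 are known to be induced. A microRNA pairs with its targets mainly through the seed, bases 2 to 8 from its 5′ end, and a matching stretch in the 3′ untranslated region (UTR) usually lowers the transcript or its translation.

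The oligonucleotides and the seed matches in the members come first because they set apart the genes that the mimic could bind. The mimic carries the sequence of the mature mouse miR-148a-3p in RefSeq, and the RefSeq table held 2 other mature microRNAs with its seed. Capitals mark the seed.
miR-148a-3p mimic: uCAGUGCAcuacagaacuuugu
mmu-miR-148b-3p: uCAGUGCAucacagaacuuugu
mmu-miR-152-3p: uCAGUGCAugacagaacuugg
negative control: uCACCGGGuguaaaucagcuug
The control sequence was read from the list of reagents. The deposited description names a siRNA as control, and every value for the control seed assumes that the listed sequence was used.

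Sites were counted where bases 2 to 8 matched, or bases 2 to 7 with an A after them, in the longest annotated 3′ UTR of the gene. The members held 8 such sites, in 4 of the 10 genes. Bcl2l11 had 4 in a UTR of 4218 bases, Bbc3 had 2 in 971 bases, and Bak1 and Bcl2 had 1 each. Bcl2l11 and Bbc3 also belong to the predicted targets listed by the study, and the other 8 members are not. Each site is printed 5′ to 3′ on the strand of the gene with the matching bases in capitals, and all lie in the 3′ UTR on mm10.
Bcl2l11 site 1, chr2:128158463-128158484, plus strand: gcatggacagcgctcTGCACTG
Bcl2l11 site 2, chr2:128159222-128159243, plus strand: tctcgtgcgcttcacTGCACTG
Bcl2l11 site 3, chr2:128162304-128162325, plus strand: atcctttagtgaacaGCACTGA
Bcl2l11 site 4, chr2:128162395-128162416, plus strand: cttcctttacgtttTGCACTGA
Bbc3 site 1, chr7:16317394-16317415, plus strand: ccgggcagcctgggTGCACTGA
Bbc3 site 2, chr7:16318081-16318102, plus strand: gtaagatactgtacaTGCACTG
Bak1 site, chr17:27020706-27020727, minus strand: catcctgtctcagagGCACTGA
Bcl2 site, chr1:106538893-106538914, minus strand: cgctatagacatctgTGCACTG
Bcl2l11 and Bbc3 each held 1 full 8-base site, the fourth site of Bcl2l11 and the first of Bbc3. Sites 3 and 4 of Bcl2l11 lay close together near the end of its UTR, beginning 3990 and 4080 bases after the stop codon. Bcl2l11 was also the member that held a match to the seed of the negative control, at chr2:128161548-128161569.
Bcl2l11 control-seed match, plus strand: atgagtgttttgctgCCGGTGA
Thus the transcript with the most mimic sites carried a match for both oligonucleotides, while Pmaip1, Bid, Bad, Bax, Bcl2l1 and Mcl1 held no 7- or 8-base match for either.

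**Figure D1:**
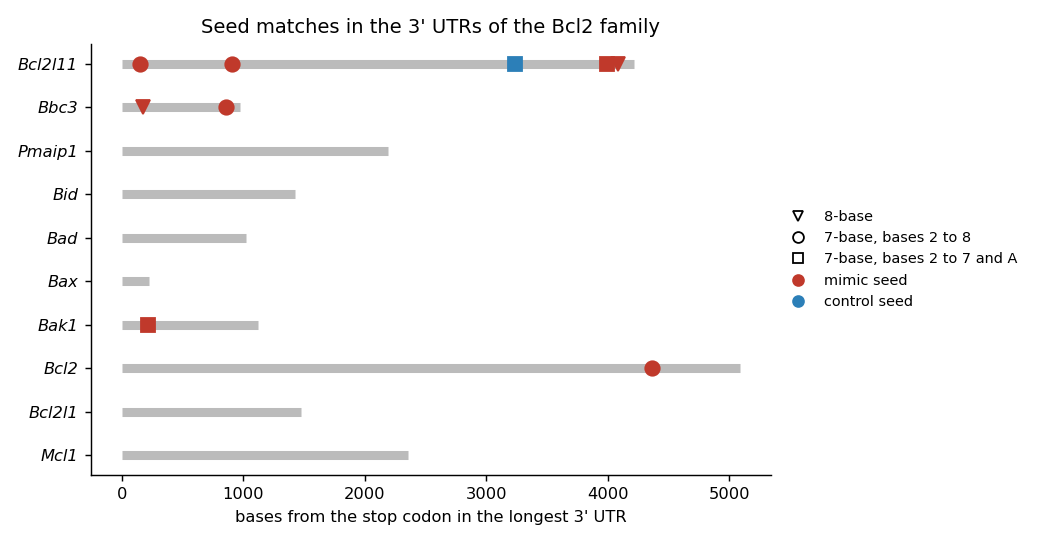
Position of seed matches in the longest 3′ UTR of each Bcl2 family gene, with bases from the stop codon on the x axis and grey bars for the length of the UTR; red symbols are matches to the mimic, the blue symbol a match to the negative control, and the shape gives the kind of site. Bcl2l11 shows 4 red symbols and the blue one, Bbc3 shows 2, and Bak1 and Bcl2 show 1 each.

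Library totals ran from 20018234 to 37149112 counts, and the shallowest were control replicates 1 and 2. These libraries also stood apart from the other controls on the second principal component, at 26.4 and 10.1 where the other 4 controls lay between -11.2 and -2.07, so results that rest on them are given without them as well. The cultures expressed neuronal markers strongly, with the 10 genes of that list summing to 7124 to 7797 CPM (counts scaled to the library total) in control and 7029 to 7355 in mimic. Its genes went both ways, with Tubb3, Stmn2 and Neurod2 lower and Gad2 higher at an adjusted p under 0.05 in edgeR. Glial and cycling cells were present too. Summed astrocyte markers ran from 4895 to 5378 CPM in control and 5718 to 6180 in mimic (6 of 9 genes higher and 1 lower), oligodendrocyte lineage markers from 393 to 681 and 768 to 963 (5 of 8 higher, 1 lower), and cycling cell markers from 224 to 269 and 449 to 471 (10 of 10 higher). Mesenchymal markers ran from 201 to 268 CPM in control and from 98.1 to 226 in mimic (2 of 8 lower), and endothelial markers from 46.6 to 68.7 and from 28.3 to 50.8 (2 of 5 tested genes lower). Among astrocyte markers Slc1a3 rose from 912.7 to 1815 CPM on average, Slc1a2, Aldh1l1, Gja1, S100b and Aldoc also rose, and Gfap fell from 1362 to 731 CPM. Without Slc1a3 the means of the other 8 genes, Gfap included, summed to 4289 CPM in control and 4067 in mimic. Olig1 made up most of the oligodendrocyte lineage sum (369.8 and 720.3 CPM), and the mesenchymal genes called lower were Acta2 and Tagln. The endothelial sum was nearly all Kdr (58.6 CPM on average in control and 37.6 in mimic), and Cldn5, Cdh5, Tek and Flt1 stayed below 1 CPM in every library. Microglial markers lay between 8.33 and 19.6 CPM in all libraries, and Cx3cr1, P2ry12, Tmem119 and Itgam stayed below 1 CPM throughout (C1qa was lower, 1 of 8 genes, and none higher at an adjusted p under 0.05 in edgeR). The exact permutation test of these sums (two-sided, adjusted over 7 lists) gave 0.00505 for the astrocyte, oligodendrocyte lineage and cycling lists, 0.0114 for endothelial, 0.0121 for mesenchymal, 0.0379 for neuron and 0.935 for microglia, where 0.00216 is the smallest unadjusted p that these samples allow. In bulk RNA, fewer cells of a type and less RNA per cell cannot be told apart, and the part of these shifts in the results below was not tested.

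Of the 10 members, Bcl2l11 was higher in mimic and Bbc3, Bid and Bak1 were lower at an adjusted p under 0.05 in the quasi-likelihood test of edgeR. That is 40% of the members, against 22.2% of all 18847 genes (11.5% higher and 10.7% lower). All 10 members had a mean of at least 100 counts, as had 12371 of the 18847 genes, so these shares cover genes of unlike depth. Without control replicates 1 and 2 the shares were 30% of the members and 31.3% of all genes tested. The calls of Bcl2l11 and Bid held when any single library was left out, whereas those of Bbc3 and Bak1, at adjusted p-values of 0.0459 and 0.0480, did not. None of the 3 pro-survival members passed the threshold. The median log2 fold change of the 10 members was -0.0085 and that of all tested genes -0.012, and the median absolute log2 fold changes were 0.10 and 0.12.

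**Figure D2:**
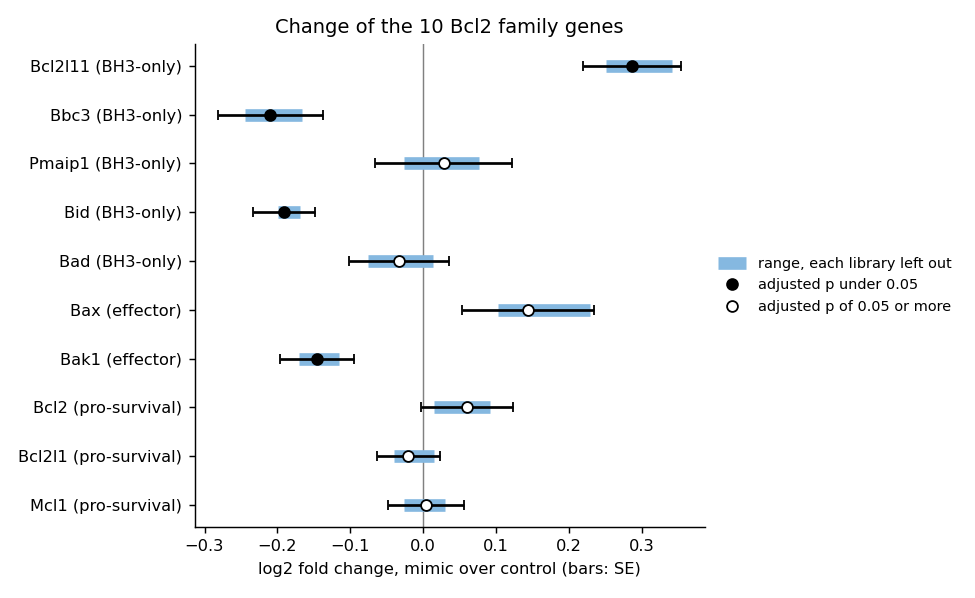
Log2 fold change of each Bcl2 family gene (mimic over control, points with SE bars; filled points have an edgeR adjusted p under 0.05), with blue bands for the range of the estimate when each of the 12 libraries is left out in turn. Bcl2l11 lies at 0.29 with Bbc3 at -0.21 and Bid at -0.19 on the other side, and the bands of Pmaip1, Bad, Bcl2l1 and Mcl1 cross 0.

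Bcl2l11 encodes Bim, a BH3-only protein that binds all pro-survival members and can activate Bax directly. Its counts were low, between 135 and 288 per library. The lowest, median and highest level was 6.28, 6.91 and 8.32 CPM in the 6 control libraries and 8.32, 8.48 and 9.31 CPM in the 6 mimic libraries. All 6 mimic libraries exceeded the control mean and 5 exceeded every control library, and the groups met only where control replicate 4 (8.3226 CPM) lay just above mimic replicate 4 (8.3206 CPM). The mean went from 7.07 ± 0.691 to 8.63 ± 0.365 CPM (SD, n = 6 each), an increase of 22.01% (log2 fold change 0.29 ± 0.067 SE, edgeR adjusted p = 0.00455). Without control replicates 1 and 2 the log2 fold change was 0.26 (adjusted p = 0.00776). Counting error alone at these depths gives a spread of 6.99% in control and 6.13% in mimic, and the observed spread was 9.78% and 4.23%. The gene lies on chromosome 2 of mm10 (128126038 to 128162547, ENSMUSG00000027381), shares no exonic base with another annotated gene, and was counted as a whole, so that its splice forms cannot be told apart.

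The rise of Bcl2l11 was set beside other genes by number of mimic sites. Of 15082 tested genes with an annotated 3′ UTR, 34 (0.225%) had 4 or more sites. Their median log2 fold change was -0.067, 9 of them were called lower (26.5%) and 2 higher (5.88%), the latter being Bcl2l11 and Nsd1 (log2 fold change 0.13), a pair named after their values were seen. The other 33 genes all lay below Bcl2l11. Among the 11774 genes without a site 10.8% were called lower and 14.1% higher, and the shares lower and higher were 17.7% and 12.2% with 1 site, 23.8% and 10.1% with 2, and 28.2% and 8.87% with 3. The genes with 4 or more sites also had long UTRs, with a median of 5975 bases against 933 without a site. The match to the control seed is shared with 666 tested genes, of which 23.6% were called higher and 9.91% lower, and 4 genes combined it with 4 or more mimic sites, 1 of them called higher (Bcl2l11 itself) and 1 lower, 25% each. Whether either seed bears on Bcl2l11 was not tested.

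**Figure D3:**
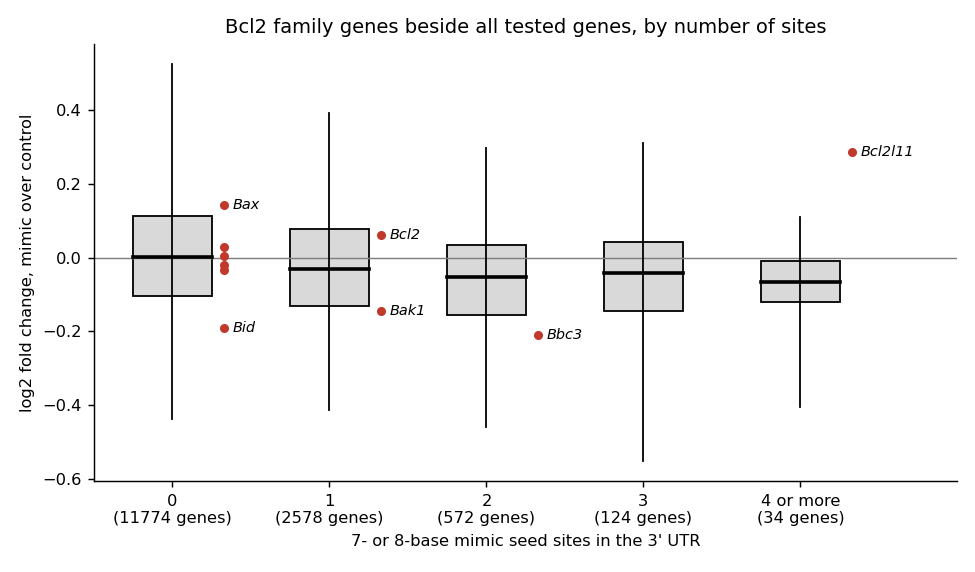
Log2 fold change (mimic over control) of all tested genes grouped by the number of 7- or 8-base mimic sites in the 3′ UTR, with the median as a thick line, the quartiles as a box and the 5th to 95th percentile as a thin line; red points are the Bcl2 family genes. Medians run from 0.0013 without a site to -0.067 with 4 or more, where Bcl2l11 lies above the thin line at 0.29, while Bbc3, with 2 sites, lies at -0.21.

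Bbc3 encodes Puma, a BH3-only protein induced by p53 and by FoxO factors. Its level was 16.7, 17.96 and 21.9 CPM (lowest, median and highest) in control and 14.7, 16.5 and 17.9 CPM in mimic. All 6 mimic libraries lay below the control mean and 3 below every control library, and the highest controls were replicates 1 (21.9 CPM) and 2 (21.6 CPM). Means were 19.0 ± 2.22 in control and 16.3 ± 1.23 CPM in mimic (SD over 6 libraries), and the transcript fell by 0.21 (log2, ± 0.072 SE, edgeR adjusted p = 0.0459). Without both shallow controls the value was -0.11 (adjusted p = 0.147), and with the replicate number as a block the adjusted p was 0.0635. Bbc3 (ENSMUSG00000002083, chr7:16308393-16318205) was 1 of 572 tested genes with 2 mimic sites, for which the shares are given above, and shares no exonic base with another gene.

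Bid encodes a BH3-only protein that caspase 8 cleaves, which links death receptors to mitochondria, and its control libraries varied least among those of the 10 members. The observed spread was 2.53% in control and 4.06% in mimic, below the 4.28% and 4.43% that counting error alone gives. The level of Bid was 18.1, 18.9 and 19.4 CPM in control and 15.2, 16.8 and 17.1 CPM in mimic. The groups did not overlap, which was so for 1 member in 10 and for 13.3% of all tested genes. Its mean was 18.9 ± 0.477 CPM in control against 16.5 ± 0.670 in mimic (SD, n = 6 each), and Bid fell by 12.4% (log2 fold change -0.19 ± 0.042 SE, edgeR adjusted p = 0.00302), and without control replicates 1 and 2 the log2 fold change was -0.21 (adjusted p = 0.000964). Its 3′ UTR held no mimic site. At chr6:120891930-120916853, 628 exonic bases of Bid (17.7%) overlap Bcl2l13 on the opposite strand, a gene that rose. The sources do not say if reads were assigned by strand, and those of this stretch may belong to either gene.

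Pmaip1, which encodes Noxa, a BH3-only protein that chiefly opposes Mcl1, had 9.87 ± 1.49 CPM in control and 10.1 ± 1.03 CPM in mimic, with a log2 difference of 0.028 (± 0.094 SE, edgeR adjusted p = 0.879). Bad, whose product is held inactive by phosphorylation under growth factor signalling, had 25.5 ± 3.04 and 24.8 ± 1.56 CPM (log2 fold change -0.033 ± 0.069 SE, edgeR adjusted p = 0.797). The mimic libraries of Bad (22.7 to 26.5 CPM) lay within the control range (21.8 to 29.4 CPM), and those of Pmaip1 (8.64 to 11.8 CPM) overlapped it broadly (7.68 to 11.4 CPM). Of the exonic bases of Bad (chr19:6941861-6951899), 524 (20.5%) overlap Gpr137 on the opposite strand, which had 1758.6 counts on average against 744.4 for Bad.

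The effectors are alternative pore formers, and of this pair Bak1 fell. Bak1 (chr17:27019810-27029009), whose product sits in the outer mitochondrial membrane, had 22.3, 24.2 and 27.0 CPM (lowest, median and highest) in control and 20.4, 22.1 and 22.7 CPM in mimic. All 6 mimic libraries were below the control mean and 4 below every control library, and the gene fell by 0.15 (log2, ± 0.051 SE, edgeR adjusted p = 0.0480). Of its exonic bases 437 (18.2%) overlap Ggnbp1 on the opposite strand, which had 75.2 counts on average against 685.2 for Bak1. The call of Bak1 was lost when 10 of the 12 libraries were left out 1 at a time, with the replicate block (adjusted p = 0.0917), and without both shallow controls (-0.090, adjusted p = 0.132). Bax (chr7:45461697-45466898), whose product moves from the cytosol to mitochondria when activated, had 38.6, 40.9 and 58.0 CPM in control and 44.4, 48.9 and 52.9 CPM in mimic. Here control replicates 1 and 2 held 58.0 and 51.3 CPM, while the other 4 controls lay between 38.6 and 41.1 CPM, below all 6 mimic libraries. Over all libraries the log2 difference of Bax was 0.14 (± 0.090 SE, edgeR adjusted p = 0.300). It was 0.23 without control replicate 1 (adjusted p = 0.0179) and 0.30 without both (SE 0.042, adjusted p = 4.38e-06). The value for Bax thus depends on a pair of libraries.

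The 3 pro-survival members had similar mean levels in both groups. Mcl1 (chr3:95658788-95663176), which encodes a short-lived protein whose level follows its synthesis, had 134 ± 11.2 CPM in control against 135 ± 6.90 in mimic (SD, n = 6 each), with a log2 difference of 0.0037 (± 0.052 SE, edgeR adjusted p = 0.975). Bcl2l1 (chr2:152780668-152831728), whose long form Bcl-xL is the main pro-survival product in neurons, had 117 ± 7.92 and 115 ± 4.04 CPM (log2 fold change -0.021 ± 0.043 SE, edgeR adjusted p = 0.797). Bcl2 (chr1:106538178-106714274), the founding member, had 30.4 ± 3.09 and 31.7 ± 2.09 CPM (log2 fold change 0.060 ± 0.063 SE, edgeR adjusted p = 0.565), with 1 mimic site 4365 bases after the stop codon. In each of these genes the ranges of the groups overlapped, and the shallow control replicate 1 was the lowest control for Mcl1 and Bcl2 and the highest for Bcl2l1.

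**Figure D4:**
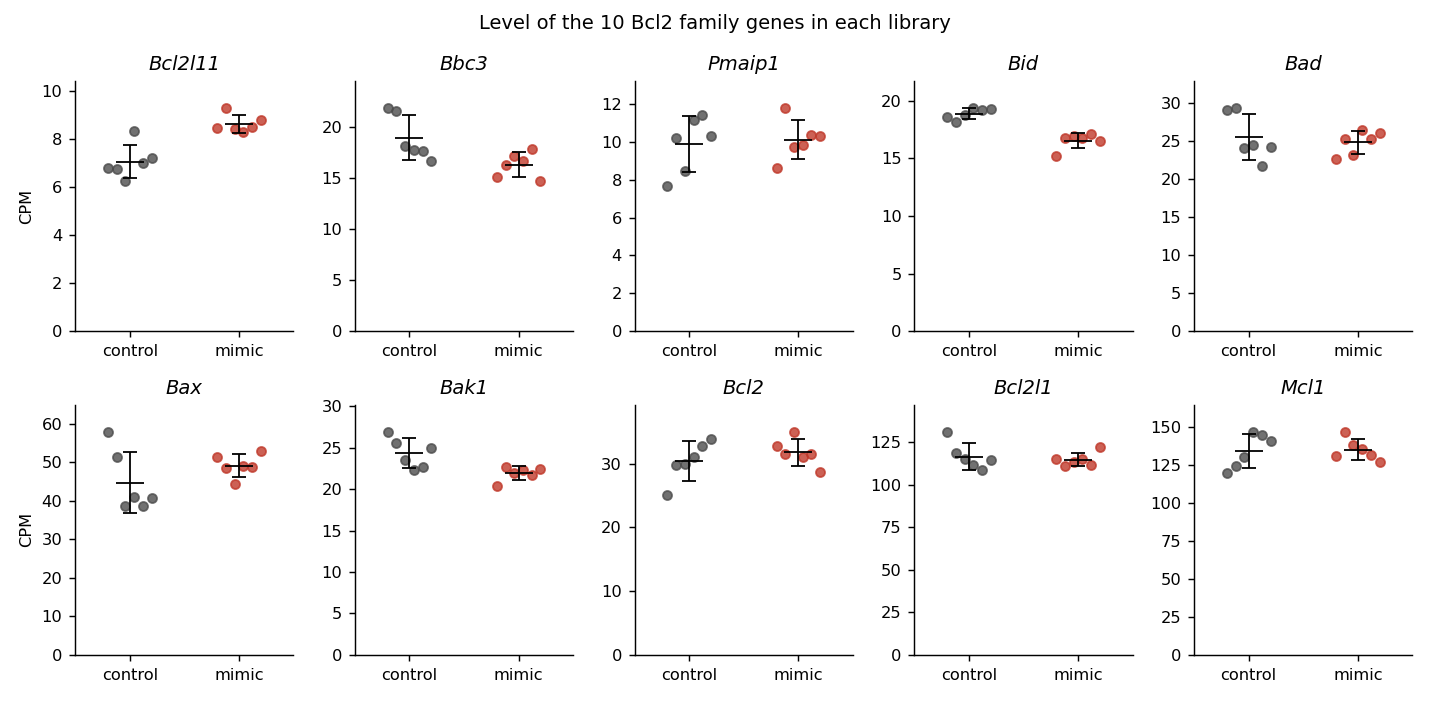
Level of each Bcl2 family gene in CPM on an axis that starts at 0, with a point for each of the 6 control (grey) and 6 mimic (red) libraries in order of replicate number and the mean ± SD in black. The groups are apart in Bid, touch in Bcl2l11, and in Bax 2 control libraries lie above the other 4.

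Levels of different genes were compared per length, as CPM per kilobase of annotated exon. In control the order was Mcl1 (39.3 ± 3.28), Bax (28.4 ± 5.09), Bcl2l1 (25.4 ± 1.73), Bak1 (10.1 ± 0.755), Bad (9.98 ± 1.19), Bbc3 (8.93 ± 1.05), Bid (5.31 ± 0.134), Pmaip1 (3.61 ± 0.545), Bcl2 (3.32 ± 0.337) and Bcl2l11 (0.880 ± 0.0861). Libraries of neighbours in this order overlapped for Mcl1 and Bax, Bax and Bcl2l1, Bak1 and Bad, Bad and Bbc3, and Pmaip1 and Bcl2, and were apart for the others. In mimic, Bad (9.71 ± 0.609) and Bak1 (9.11 ± 0.352) changed places within their overlap, and Bcl2l11 was still lowest at 1.08 ± 0.0455. Bcl2l11 made up 3.08% ± 0.361 of the summed level of the 5 BH3-only genes in control and 4.01% ± 0.224 in mimic, with no overlap between groups. This share is no separate result. It joins the rise of Bcl2l11, whose own level overlapped between groups, with the falls of Bbc3 and Bid in the sum. That sum was 28.7 ± 1.82 CPM per kilobase in control and 26.8 ± 1.30 in mimic, and the sum of the 3 pro-survival genes was 68.1 ± 2.21 and 68.0 ± 1.58, each with overlapping groups. Without control replicates 1 and 2 the control values were 27.6 ± 0.619 for the BH3-only sum, 69.2 ± 1.85 for the pro-survival sum and 3.25% ± 0.310 for the share of Bcl2l11 (n = 4), and the share still did not overlap that in mimic.

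The genes whose log2 CPM followed that of Bcl2l11 most closely over the 12 libraries, among 12371 tested genes with a mean of at least 100 counts, were Hsd17b7 (Pearson r = 0.951), Fignl1 (0.941), Ccng2 (0.939), Ralb (0.933) and Sgo2a (0.932). The groups separate on this measure, and with the mean of each group removed the values were 0.840, 0.789, 0.851, 0.766 and 0.791. All 5 rose in mimic, by between 0.13 (Ccng2) and 0.86 (Sgo2a) on the log2 scale. They were ranked on these same libraries, so the values are descriptions.

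The other genes of the pathway were taken from a list of 53 in 6 roles, 5 of which are described here, and 47 genes passed the filter on low counts. In edgeR 8 were higher and 2 lower, 21.3% of them, against 22.2% of all tested genes, and their median log2 fold change was 0.025. Among the other Bcl2 family genes 3 of 8 tested were higher and none lower at an adjusted p under 0.05. That is 37.5%, against 11.5% of all tested genes called higher and 22.2% called in either direction. Bok, a close relative of the effectors, rose from 5.56 ± 0.691 to 7.55 ± 0.788 CPM (log2 fold change 0.45 ± 0.090 SE, edgeR adjusted p = 0.00123) with no overlap between groups. Bcl2l13, a mitochondrial protein of the family, rose by 0.20 (log2, ± 0.030 SE, edgeR adjusted p = 0.000126), also without overlap, and Bcl2l2, the pro-survival gene for Bcl-w, rose by 0.13 (log2, ± 0.039 SE, edgeR adjusted p = 0.0271), a call lost without control replicate 2 or mimic replicate 3. The BH3-only gene Bmf, at 42.4 counts on average, reached a log2 difference of 0.36 (± 0.13 SE, edgeR adjusted p = 0.0530), and the neuronal BH3-only gene Hrk 0.043 (± 0.032 SE, edgeR adjusted p = 0.390). Bcl2a1a, Bcl2a1b, Bcl2a1d, Bcl2l10, Bik and Bcl2l14 had less than 1 count per library on average and were not tested.

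Of 11 regulators of BH3-only genes, 2 were higher and 1 lower (27.3%, against 22.2% of all tested genes). Foxo3, a transcription factor known to drive Bcl2l11 and Bbc3, rose from 63.7 ± 2.66 to 81.3 ± 2.77 CPM (log2 fold change 0.35 ± 0.037 SE, edgeR adjusted p = 2.21e-06). The longest 3′ UTR of Foxo3 held 1 mimic site and 1 match to the control seed. That of Mapk9, which was not called, held 2 matches to the control seed. Whether these matches bear on either gene was not tested. Foxo4, a relative of Foxo3, rose by 0.41 (log2, ± 0.073 SE, edgeR adjusted p = 0.000468), and Foxo1 had a log2 difference of -0.13 (± 0.056 SE, edgeR adjusted p = 0.105). Mapk10, the neuronal Jun kinase JNK3, fell from 404 ± 16.9 to 367 ± 4.88 CPM (log2 fold change -0.14 ± 0.033 SE, edgeR adjusted p = 0.00545). In Foxo3, Foxo4 and Mapk10 the groups did not overlap, which was so for 7 of the 47 tested genes of the whole list (14.9%) against 13.3% of all genes. The tumour suppressor Trp53, which induces Bbc3, Pmaip1 and Bax, had a log2 difference of -0.018 (± 0.050 SE, edgeR adjusted p = 0.849), and Ddit3, the stress factor Chop, -0.027 (± 0.072 SE, edgeR adjusted p = 0.842).

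Downstream of the mitochondria, Diablo, whose product relieves the inhibition of caspases, was the gene that fell among 9 of mitochondrial release and the apoptosome (11.1%, against 10.7% of all tested genes called lower), from 36.2 ± 0.856 to 32.3 ± 1.09 CPM (log2 fold change -0.17 ± 0.036 SE, edgeR adjusted p = 0.00253). No gene of that role was higher. Of its exonic bases, 1326 (21.5%) overlap B3gnt4 on the opposite strand, which had 2.6 counts on average, and 122 (1.98%) overlap AC157931.1 there, which had 77.4. None of 4 inhibitors of apoptosis passed the threshold. In the death receptor arm 2 of 7 genes were called higher and none lower. That is 28.6%, against 11.5% of all tested genes called higher and 22.2% called in either direction. Tnfrsf10b, the receptor for TRAIL, rose by 0.46 (log2, ± 0.10 SE, edgeR adjusted p = 0.00320) and the adaptor Fadd by 0.38 (log2, ± 0.098 SE, edgeR adjusted p = 0.00919), and both ranges overlapped. The longest 3′ UTR of Tnfrsf10b held 1 match to the control seed. Fas had a log2 difference of -0.30 (± 0.11 SE, edgeR adjusted p = 0.0659). Of the 10 genes called, 9 kept their call whichever library was left out, the exception being Bcl2l2. Without control replicates 1 and 2 the pathway list held 10 higher and 6 lower genes, 34% of those tested, where 31.3% of all genes were called in the same refit. The genes gained included Bmf (0.38, edgeR adjusted p = 0.0396) and Tnfrsf1a on the higher side and Foxo1, Mapk8 and Fas on the lower.

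**Figure D5:**
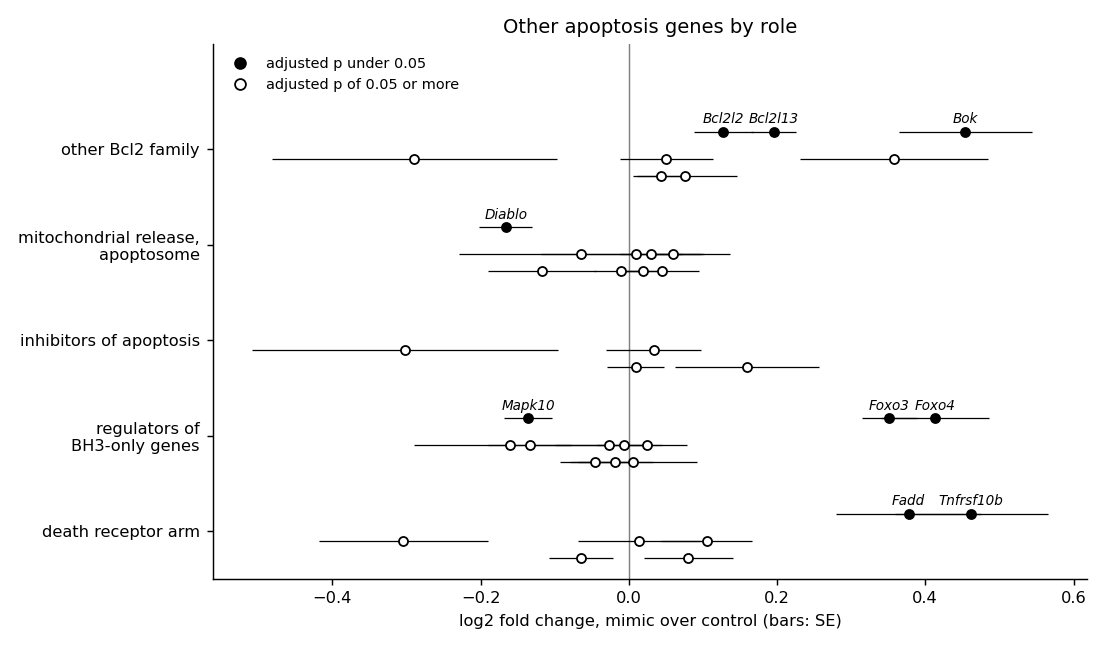
Log2 fold change (mimic over control, points with SE bars) of the 39 tested apoptosis genes in the 5 roles described, outside the 10 Bcl2 family members; filled and named points have an edgeR adjusted p under 0.05. Filled points number 7 on the higher and 2 on the lower side, with Tnfrsf10b (0.46) and Bok (0.45) farthest to the right among them.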

How the data were processed

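RNA from 6 control and 6 mimic samples was sequenced as 50 bp single-end reads from poly(A)-selected libraries. Per the labels and methods, the authors aligned reads to mm10 with STAR 2.5.2b and summarised them with featureCounts (Subread 1.5.1) into raw counts per gene, which were deposited without normalization and taken as such. The deposited table of normalized values was not used. The strand setting and annotation release are not given in the sources used here. Symbols, exons and UTRs came from GENCODE M21 on GRCm38, the build mm10, and named 48349 of 48709 genes; microRNA sequences came from RefSeq on GRCm38.p6.

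Genes with at least 5 counts in 6 of 12 samples were tested with edgeR 4.0.16 (R 4.3.3): TMM, robust quasi-likelihood F-test, no covariate, Benjamini-Hochberg adjustment over all 18847 genes, called at 0.05. The SE is the log2 fold change divided by the square root of F. CPM use TMM-scaled totals. The fit was tested on simulated data. Alternatives were DESeq2 1.42.0, its size factors, other filters, a replicate block, a test against a 1.2-fold change, each library left out and, added after the data were seen, control replicates 1 and 2 left out together.

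Members, gene lists and roles were chosen with earlier results of these data known. Named genes were the 10 members, up to 6 genes per role past the threshold with at least 100 counts on average, and the 5 genes most like Bcl2l11; results of 1 role of the pathway list enter its counts but are not reported here; other named genes were chosen after their values were seen.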

Additional observations from a re-analysis of the deposited data

Results flagged for a closer look

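Each of the 10 members gave 2 sets of 6 libraries, and the 20 sets were searched for a lone high or low library by Dixon's ratio of gap to range, with a limit of 0.625 at which about 1 set in 20 is expected by chance. The search returned 2 libraries. For Bid it was mimic replicate 1 at 15.2 CPM, with the other mimic libraries between 16.45 and 17.1 CPM, and all of them below the controls. For Bcl2l1 it was mimic replicate 6 at 122 CPM, with the others between 111 and 115 CPM.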

How the results depend on the processing

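Bcl2l11 and Bid kept direction and call under DESeq2, its size factors, both other filters, the replicate block and the omission of any single library (Bcl2l11 0.25 to 0.34, Bid -0.20 to -0.17), but neither exceeded a 1.2-fold change in the test of that limit (Bcl2l11 0.29, adjusted p = 0.988). Against 1.2-fold, 683 genes were higher and 352 lower, with 0 members higher and 0 lower and, of the pathway genes, 1 higher and 0 lower; the stricter limit alone accounts for this. Same-numbered samples did not deviate together (r from -0.107 to 0.227), and the replicate block left 1 member lower (Bid), with Bcl2l11 at an adjusted p of 0.0135. Bak1 also missed the threshold with the size factors of DESeq2 (0.0528) and without a filter (0.0789). Without control replicates 1 and 2, calls over all genes went up to 3058 higher and 2892 lower, 31.3% of those tested, beside which there were 2 members higher (Bcl2l11, Bax) and 1 lower (Bid), 30% of them, and 6 pathway genes lower, and values near 0 changed sign (Pmaip1 -0.029, Bad 0.069, Bcl2 -0.0024, Bcl2l1 0.030, Mcl1 -0.059); the cause was not tested. Mcl1 was at -0.0023 with at least 50 counts in 6 samples. Leaving out single libraries gave 1880 to 2697 genes higher and 1612 to 2453 lower, 1 to 2 members higher and 1 to 3 lower, 7 to 9 pathway genes higher and 2 to 5 lower; the 2 and the 5 came without control replicate 1, whereas 8 of the 12 refits left 1 member lower. In the same refits Bbc3 lay between -0.24 and -0.17 (called in 4 of 12), Bak1 between -0.17 and -0.12 (2 of 12), Bax between 0.10 and 0.23 (1 of 12), Pmaip1 between -0.026 and 0.076, Bad between -0.076 and 0.014, Bcl2 between 0.014 and 0.092, Bcl2l1 between -0.040 and 0.015 and Mcl1 between -0.027 and 0.030. Marker lists kept direction and side of the threshold without control replicate 1. The 8 sites became 9 with all UTR forms joined and 11 with 6-base sites. Counting error was largest for Bcl2l11, the member with the fewest counts (6.99% in control and 6.13% in mimic). Its SE of 0.067 was nevertheless below those of Pmaip1 (0.094), Bax (0.090), Bbc3 (0.072) and Bad (0.069).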
